A study of Homo sapiens with 4 samples.

Results

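The genes described here are the core small RNA silencing machinery of HEK-293, a human cell line derived from embryonic kidney, after siRNA knockdown of ZSCAN5A or ZSCAN5B. They are 10 genes chosen by name, of 23284 gene symbols in the expression table: the Argonaute genes EIF2C1, EIF2C2, EIF2C3 and EIF2C4 (called AGO1, AGO2, AGO3 and AGO4 in current annotation), DICER1, DROSHA, DGCR8, XPO5, TNRC6A and TNRC6B. All 10 were found and all 10 were above 1 FPKM in every library. FPKM is the number of sequenced fragments scaled to transcript length and library depth, so levels of different genes can be compared per length.

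The study asked which genes depend on the zinc finger proteins ZSCAN5A and ZSCAN5B. Cells were transfected for 48 h with 10 nM of siRNA si4 or si5 against ZSCAN5A, si1 against ZSCAN5B, or a scrambled siRNA (control), and polyadenylated RNA was sequenced. There was 1 library for each, 4 in all, so that no difference below has a replicate check and si4 and si5 are different siRNAs rather than repeats of a treatment. All 4 groups received a small RNA duplex and the same lipid reagent, and untransfected cells were not analysed here. All comparisons with the control rest on the same single control library.

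In the microRNA pathway, DROSHA and its RNA-binding partner DGCR8 cut the hairpin out of the primary transcript in the nucleus, and XPO5 carries the hairpin to the cytoplasm. DICER1 then cuts it to a duplex, and an Argonaute protein keeps 1 strand of the duplex as a guide. GW182 proteins, encoded by the TNRC6 genes, bind Argonaute and recruit the complexes that remove the poly(A) tail and the cap of the target mRNA. Synthetic siRNAs enter the same route at the Argonaute step, and AGO2 is the human Argonaute best known for cutting a fully matched target. A guide can also act on mRNAs that match only its seed, bases 2 to 8, as microRNAs do.

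The siRNAs themselves are shown first, since they are both the treatment of these cells and a cargo of the proteins described. The targets lie in the last exons of genes on the minus strand of chromosome 19 (build hg19, the same assembly as GRCh37). The si4 target was at chr19:56733332-56733352 and the si5 target at chr19:56733307-56733327, both in exon 6 of 6 of ZSCAN5A, and the si1 target was at chr19:56701591-56701611 in exon 5 of 5 of ZSCAN5B. Each is written 5′ to 3′ as in the transcript, and the guide is its reverse complement, with the 7-base seed or its match in capitals.
si4 target: cgagaagaggtttACGTGTAa
si4 guide: tTACACGTaaacctcttctcg
si5 target: aagctagtcatccACAAGAGa
si5 guide: tCTCTTGTggatgactagctt
si1 target: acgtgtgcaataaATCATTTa
si1 guide: tAAATGATttattgcacacgt
The 3 seeds differ from each other. No transcript of the 10 genes held a stretch close to a whole target: the best alignment without gaps of any siRNA to any of them had 6 to 8 mismatches over 21 bases.

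ZSCAN5A, the gene targeted by si4 and si5, stood at 2.42 FPKM in the control, 0.730 under si4, 0.713 under si5 and 2.53 under si1. ZSCAN5A was thus lower with its own siRNAs only, at log2 -1.74 for their mean. ZSCAN5B was near the detection limit in all 4 libraries, at 0.0903, 0.0331, 0.0663 and 0.0948 FPKM in the same order, which correspond to 15, 6, 17 and 16 fragments. ZSCAN5B was not lower with si1, the siRNA designed against it (ratio 1.05, 95% counting interval 0.486 to 2.28), and the si1 sample is therefore called the library labelled ZSCAN5B knockdown. The study's own qRT-PCR and protein blots reported ZSCAN5B as lower after its siRNA, the direction of the label. Those assays were not analysed here.

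Relative to the control, the libraries of si4, si5 and si1 were 1.09, 1.54 and 1.02 times as deep, as read from the step sizes of the lowest FPKM values. From depth and transcript length each of the 10 genes had between 496 and 14679 fragments in a library. Ratios are given with 95% intervals from these estimated fragments, and the intervals cover counting error only, not variation between cultures. Of 6 genes typical of HEK-293 cells, 5 were above 1 FPKM in every library. Of 7 markers of blood, liver, endothelial and fibroblast cells only COL1A1 was, at 1.1 to 1.85 FPKM, and the others were at or below 0.0493 FPKM.

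The Argonaute transcripts were lower than in the control in every siRNA library, except EIF2C3 under si4. In bulk RNA, fewer cells with a transcript and less of it per cell cannot be told apart. Summed over the 4 genes they came to 28.7 FPKM in the control, 23.0 under si4, 21.8 under si5 and 20.5 under si1, that is 80.3%, 75.9% and 71.5% of the control level. The sums with the 3 siRNAs lay closer to each other than to the control.

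EIF2C2 (AGO2), the slicing Argonaute, stood at 7.81 FPKM in the control, 5.52 under si4, 5.79 under si5 and 5.33 under si1. The values with siRNA lay within a narrow range, and all were below the control. The log2 ratio was -0.47 for the mean of si4 and si5 and -0.55 for si1, so that the levels were 72.4% and 68.3% of the control. Counting intervals for the ratio to control were 0.653 to 0.763 for si4, 0.692 to 0.795 for si5 and 0.631 to 0.740 for si1, and none reached 1. The gene lies on the minus strand at chr8:141541264-141645646, and that interval of the table held 24.0% of the bases of the canonical annotated transcript, whose 3′ UTR runs beyond it.

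EIF2C4 (AGO4) was the most abundant Argonaute transcript per length in the control, for the part of each transcript inside the table's intervals. It stood at 10.2 FPKM in the control, 7.84 under si4, 7.86 under si5 and 6.21 under si1 (chr1:36273828-36323490, plus strand). The si4 and si5 libraries were level with each other, the control was above them and the si1 library was below them. The log2 ratio to control was -0.37 for si4 and si5 and -0.71 for si1, the lowest of the 10 genes in that library. The ratio for si1 was 0.610 (95% counting interval 0.580 to 0.642), past the 1.5-fold limit that the study used to call genes with si1.

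EIF2C1 (AGO1), which binds microRNAs but cuts targets poorly, stood at 7.94 FPKM in the control, 6.82 under si4, 5.63 under si5 and 6.48 under si1 (chr1:36348810-36389899, plus strand). The si5 library was the lowest, at 70.9% of the control, while si4 was at 86.0% and si1 at 81.6%. The log2 ratio was -0.35 for si4 and si5 and -0.29 for si1.

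EIF2C3 (AGO3), the least abundant of the 4, stood at 2.74 FPKM in the control, 2.83 under si4, 2.47 under si5 and 2.46 under si1 (chr1:36396683-36522063, plus strand). Its si4 value was above the control and its si5 and si1 values were below, and all 3 counting intervals of the ratio (0.918 to 1.16, 0.806 to 1.01 and 0.793 to 1.02) contained 1. A difference of EIF2C3 from the control was therefore not detectable at this depth. The table's interval held 18.4% of the bases of the canonical annotated transcript.

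EIF2C4, EIF2C1 and EIF2C3 are neighbours on chromosome 1, in that order and on the same strand. EIF2C4 led in the control with 35.5% of the Argonaute sum, EIF2C1 followed with 27.7% and EIF2C2 with 27.3%, and EIF2C3 made up 9.56%. In the si1 library EIF2C1 was the first with 31.6%, and EIF2C4 made up 30.3%. The table's intervals held 97.1% of the bases of the canonical annotated transcript for EIF2C4 and 54.5% for EIF2C1. They held 24.0% for EIF2C2 and 18.4% for EIF2C3, the same order as the control FPKM. Whether this coverage accounts for the ranking was not tested. No 50-base stretch was shared between the transcripts of any pair of the 10 genes (0 of 107147 stretches), so that fragments of 1 Argonaute gene would rarely match another exactly.

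**Figure D1:**
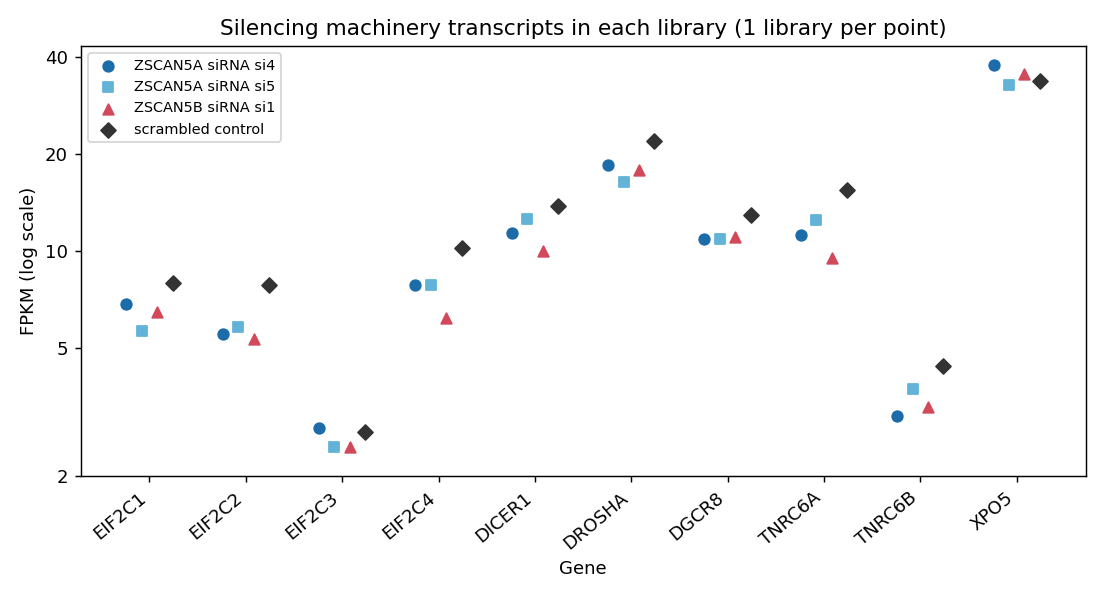
FPKM (log scale) of the 10 silencing machinery genes, with 1 point for each library: ZSCAN5A siRNAs si4 and si5, ZSCAN5B siRNA si1 and the scrambled control. The control point was the highest for 8 of the 10 genes, and EIF2C3 and XPO5 were the exceptions.

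Both genes of the nuclear step were below the control in all 3 siRNA libraries. DROSHA, the nuclease of the Microprocessor complex, stood at 21.9 FPKM in the control, 18.5 under si4, 16.3 under si5 and 17.8 under si1 (chr5:31400602-31532282, minus strand). The si5 library was the lowest, and the log2 ratios were -0.33 for si4 and si5 and -0.30 for si1.

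DGCR8, the partner that recognises the hairpin, stood at 12.9 FPKM in the control, 10.9 under si4, 10.9 under si5 and 11.1 under si1 (chr22:20067755-20099400, plus strand). It varied least among the siRNA libraries, with log2 ratios of -0.25 with each of si4 and si5 and -0.23 with si1. The ratio of DROSHA to DGCR8 was 1.69, 1.70, 1.5 and 1.61 in the same order of libraries, so that both subunits kept a similar proportion in the si4, si1 and control libraries and the si5 library was lower. The interval of DGCR8 contains the microRNA genes MIR1306 and MIR3618, both listed at 0 in this table of polyadenylated RNA. Hairpins in the DGCR8 message are known targets of the Microprocessor itself.

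XPO5, the hairpin exporter, was the most abundant of the 10 genes per length and was the 1 gene whose ratio was above 0 in both comparisons. It stood at 33.7 FPKM in the control, 37.7 under si4, 32.6 under si5 and 35.3 under si1 (chr6:43490068-43543812, minus strand). The si4 and si1 values were above the control and the si5 value was below. The log2 ratio was 0.06 for the mean of si4 and si5, made of 0.16 for si4 and -0.05 for si5, and 0.07 for si1.

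DICER1 stood at 13.8 FPKM in the control, 11.4 under si4, 12.5 under si5 and 9.96 under si1 (chr14:95552565-95623759, minus strand). Its lowest value was in the si1 library, at 72.4% of the control (log2 -0.47, counting interval of the ratio 0.700 to 0.749), and the mean of si4 and si5 was at 87.0% (log2 -0.20). The XPO5 to DICER1 ratio was lowest in the control at 2.45, and it was 3.31 under si4, 2.60 under si5 and 3.54 under si1. A microRNA gene, MIR3173, lies inside the interval of DICER1 and was listed at 0 in every library.

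The GW182 genes were below the control in all 3 siRNA libraries. TNRC6A (GW182 itself) stood at 15.4 FPKM in the control, 11.2 under si4, 12.5 under si5 and 9.51 under si1 (chr16:24741049-24837547, plus strand). The si1 library was the lowest, with a log2 ratio of -0.38 for si4 and si5 and -0.70 for si1. The si1 ratio of 0.617 (counting interval 0.594 to 0.640) was past the 1.5-fold limit. It was short of the limit after the length and GC correction described below (log2 -0.53).

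TNRC6B, its close relative, stood at 4.39 FPKM in the control, 3.07 under si4, 3.72 under si5 and 3.27 under si1 (chr22:40440821-40731812, plus strand). It was lowest with si4, at 70.04% of the control, and the log2 ratio was -0.37 for si4 and si5 and -0.42 for si1. TNRC6C, the remaining gene of the family and not 1 of the 10, stood at 3.44, 2.04, 2.22 and 1.78 FPKM in the control, si4, si5 and si1 libraries. It was past the limit in both comparisons, at log2 -0.69 for si4 and si5 and -0.95 for si1. The value for si4 and si5 was short of the limit after the length and GC correction described below (-0.38, with -0.64 for si1) and on log2(FPKM + 1). The 3 GW182 genes together came to 23.2 FPKM in the control, 16.3 under si4, 18.4 under si5 and 14.6 under si1, that is 70.2%, 79.2% and 62.7% of the control level.

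**Figure D2:**
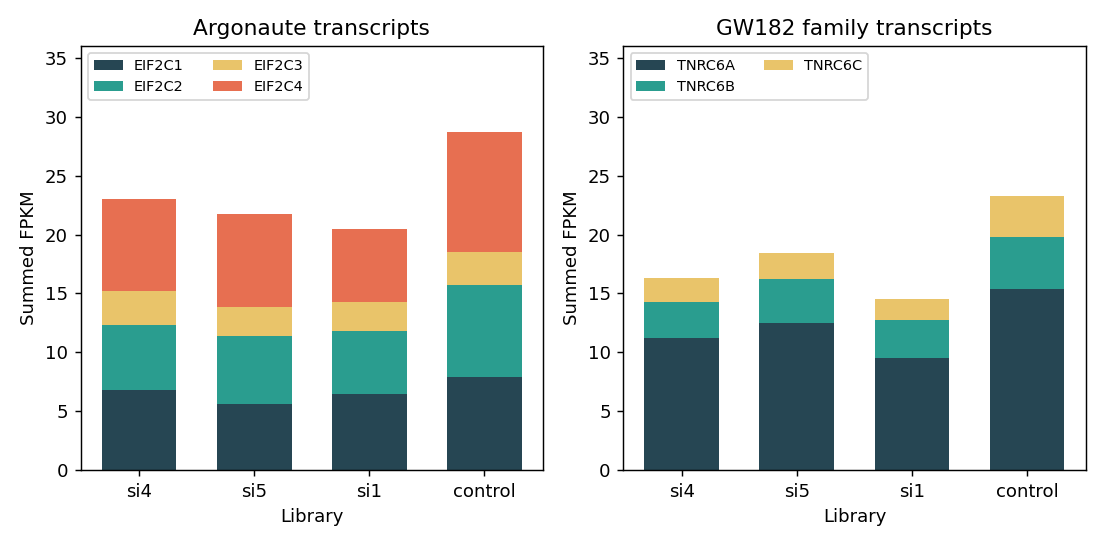
Summed FPKM of the Argonaute genes (left) and the GW182 family genes (right) in each library, with 1 library per bar and each gene as a coloured layer. Both sums were highest in the control (28.7 and 23.2 FPKM) and lowest with si1 (20.5 and 14.6 FPKM).

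For the knockdown of ZSCAN5A, 0 of the 10 genes passed the 1.5-fold limit, against 3.77% of the 12935 genes above 1 FPKM in a library of that comparison. On the low side alone the share of all genes was 3.10%. Their ratios were nonetheless mostly on 1 side. The log2 ratio was below 0 for 9 of the 10, with a median of -0.34 and a range of -0.47 to 0.06, while over all genes 53.3% were below 0 and the median was -0.02. With the siRNAs taken singly, the median of the 10 was -0.26 for si4, with 8 of 10 lower, and -0.28 for si5, with 10 of 10 lower. After the length and GC correction described below, the median for the mean of si4 and si5 was -0.15, with 8 lower.

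With si1, the library labelled ZSCAN5B knockdown, EIF2C4 and TNRC6A passed the limit, 2 of the 10 and both lower, against 4.00% of 12866 genes, or 3.16% counting lower genes alone. The median log2 ratio of the 10 was -0.36, with a range of -0.71 to 0.07, and 9 of 10 were below 0. Over all genes 51.5% were below 0 and the median was -0.01. After the length and GC correction described below, TNRC6A was short of the limit (log2 -0.53). The median of the 10 was then -0.20, with 9 lower. The values with si1 and with si4 and si5 have the control library in common, so the low side of both comparisons is not 2 separate observations. Of the 10 genes, 8 were below the control in all 3 siRNA libraries, and 36.2% of 12926 expressed genes were too.

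**Figure D3:**
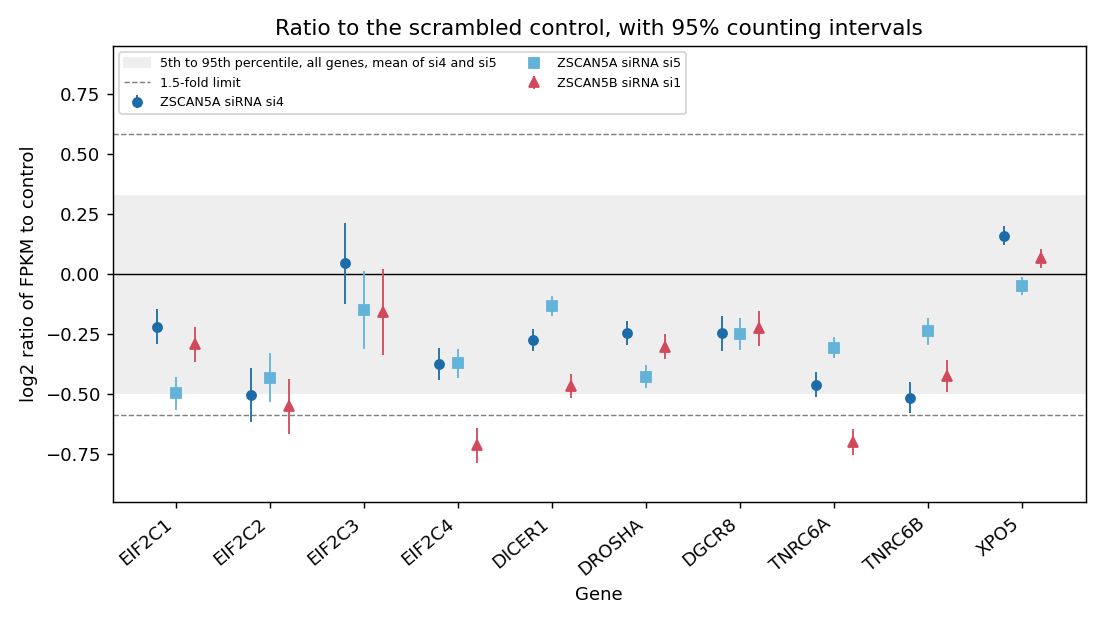
Log2 ratio of FPKM to the scrambled control for each of the 10 genes with si4, si5 and si1, with 95% counting intervals from estimated fragments, which hold no variation between cultures. The grey band runs from the 5th to the 95th percentile of all genes for the mean of si4 and si5 (-0.49 to 0.33), the dashed lines mark the 1.5-fold limit, and EIF2C4 and TNRC6A with si1 lie below the lower one.

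The siRNA libraries were also compared without the control. Between the library labelled ZSCAN5B knockdown and the mean of si4 and si5, 0 of the 10 genes passed the 1.5-fold limit, against 1.27% of all genes. The 3 lowest were EIF2C4 at log2 -0.34, TNRC6A at -0.32 and DICER1 at -0.26, and the remaining 7 lay between -0.11 and 0.06. With the fragments of si4 and si5 added together, the ratio was 0.790 for EIF2C4 (counting interval 0.755 to 0.827), 0.796 for TNRC6A (0.769 to 0.823) and 0.826 for DICER1 (0.801 to 0.851). These 3 genes were lower with si1 than with each ZSCAN5A siRNA. Between si5 and si4, which target the same gene, 0 of the 10 passed the limit, against 2.53% of all genes, and the log2 ratios ran from -0.28 for EIF2C1 to 0.28 for TNRC6B.

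Transcript length moved with these ratios. Among genes matched to an annotated transcript, sorted into 10 bins of equal size by length, the median log2 ratio went from 0.16 in the bin of the shortest (median 767 bases) to -0.16 in that of the longest (median 8093 bases) for si4 and si5, and from 0.17 to -0.16 for si1. In the bin of the longest 8.44% of genes were past the lower limit with si4 and si5 and 9.37% with si1. Inside the table's intervals the 10 genes ran from 3500 bases for EIF2C2 to 18280 for TNRC6B. By that length EIF2C2 was at percentile 60.9 and EIF2C3 at 62.8, and the others were at 75.1 or above. Genes of like length and GC content had a median log2 ratio of -0.17 with si4 and si5 and -0.14 with si1 at the places of the 10 genes. After that value was taken off each gene, the median of the 10 was -0.15 for si4 and si5, with 8 lower, and -0.20 for si1, with 9 lower.

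The genes differed in how much remained. EIF2C4 kept -0.59 with si1 and stayed past the limit, while TNRC6A came to -0.53 and did not. EIF2C2 kept -0.35 with si4 and si5 and -0.43 with si1, and DICER1 kept -0.41 with si1. With si4 and si5, EIF2C4 came to -0.25, TNRC6A to -0.21 and DICER1 to -0.13. TNRC6B came to -0.19 with si4 and si5 and to -0.23 with si1. EIF2C1, DGCR8 and DROSHA came to -0.09, -0.08 and -0.17 with si4 and si5 and to -0.05, -0.08 and -0.18 with si1. XPO5 stood higher after the correction, at 0.25 and 0.23, and EIF2C3 with si4 and si5 changed sign, to 0.04. The correction used only the bases inside the table's intervals. These were 7478 of the 13712 bases of the canonical transcript for EIF2C1, 3500 of 14595 for EIF2C2 and 3622 of 19660 for EIF2C3. Whether a correction by full length would leave other values for these genes was not tested. Whether transcript length accounts for the ratio of a single gene was not tested either.

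**Figure D4:**
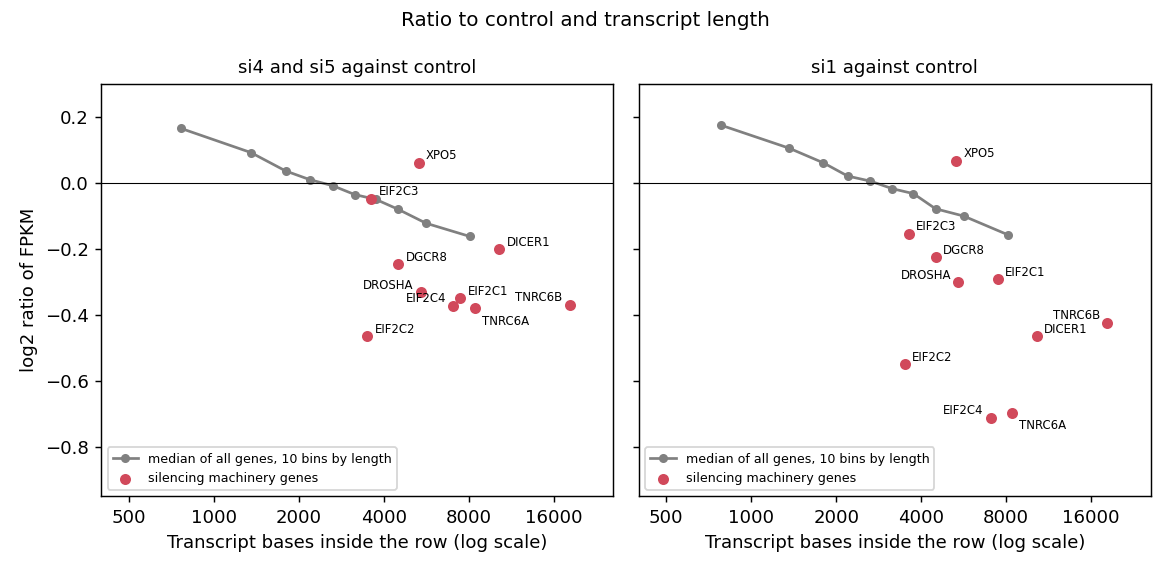
Log2 ratio of FPKM to control against the number of transcript bases inside the table's interval (log scale), for the mean of si4 and si5 (left) and for si1 (right). The grey line joins the medians of all genes in 10 bins by length, from 0.16 to -0.16 on the left, and most of the 10 genes (red) lie below it, with XPO5 above it in both panels.

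A list of 73 other genes of the pathway was examined by role, of which 67 were above 1 FPKM. They were about evenly divided: 31 were higher and 36 lower with si4 and si5 (median log2 -0.03), and 30 were higher and 37 lower with si1 (median -0.02). After the length and GC correction the medians of the 67 were 0.007 with si4 and si5 and -0.04 with si1. Those of the 10 genes were then -0.15 and -0.20, nearer to the list than before it. With si4 and si5 only TNRC6C passed the limit, 1 of 67 beside 3.77% of all genes. With si1 3 of 67 passed it, beside 4.00% of all genes: TNRC6C and PATL1, a decapping activator, on the low side and HSP90AA1, the inducible HSP90 that helps load duplexes into Argonaute, on the high side. Of the 67, 27 were below the control in all 3 siRNA libraries, beside 36.2% of all genes.

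HSP90AA1 stood at 387 FPKM in the control, 568 under si4, 505 under si5 and 595 under si1, the highest ratio of the list in both comparisons (log2 0.47 and 0.62). All siRNA libraries were above the control. Among the 9 genes of Argonaute loading, 7 were higher and 2 lower with si4 and si5, and 6 were higher and 3 lower with si1, while 53.3% and 51.5% of all genes were lower. HSP90AA1 under si1 was the 1 value of this group past the limit, and at 0.56 after the length and GC correction it was not. PATL1 stood at 12.7, 8.31, 8.96 and 8.45 FPKM in the control, si4, si5 and si1 libraries, with log2 ratios of -0.56 and -0.59, the second only just past the limit and short of it with median-ratio scaling or on log2(FPKM + 1).

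Of the partners of Dicer, TARBP2, which hands the duplex to Argonaute, stood at 16.1 FPKM in the control, 17.8 under si4, 19.8 under si5 and 16.9 under si1. The control was lowest, but the counting interval of the ratio for si1 (0.977 to 1.14) contained 1. PRKRA, its relative, stood at 28.4, 28.4, 28.0 and 27.0 FPKM in the control, si4, si5 and si1 libraries. Its counting intervals contained 1 with each siRNA (0.903 to 1.01 for si1), so no difference from the control was detectable. Both genes of the export step, RAN and RCC1, were above the control in both comparisons without passing the limit (RAN at log2 0.31 and 0.21), as XPO5 was by less. After the length and GC correction RAN came to 0.18 and 0.07, RCC1 to 0.24 and 0.24, and XPO5 to 0.25 and 0.23.

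Downstream of GW182, the 15 genes of deadenylation had 11 lower with si4 and si5 and 10 with si1, with medians of -0.12 and -0.11, and the 12 genes of decapping and decay had 8 and 9 lower, beside 53.3% and 51.5% of all genes. Of the deadenylation genes 0 passed the limit in either comparison, beside 3.77% and 4.00% of all genes. The germline Argonaute relatives of the PIWI class were near or at the detection limit. PIWIL1 was listed at 0 in every library and PIWIL3 in the si4 and si1 libraries, PIWIL2 was at most 0.0967 FPKM, and PIWIL4 was between 0.137 and 0.191 FPKM.

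**Figure D5:**
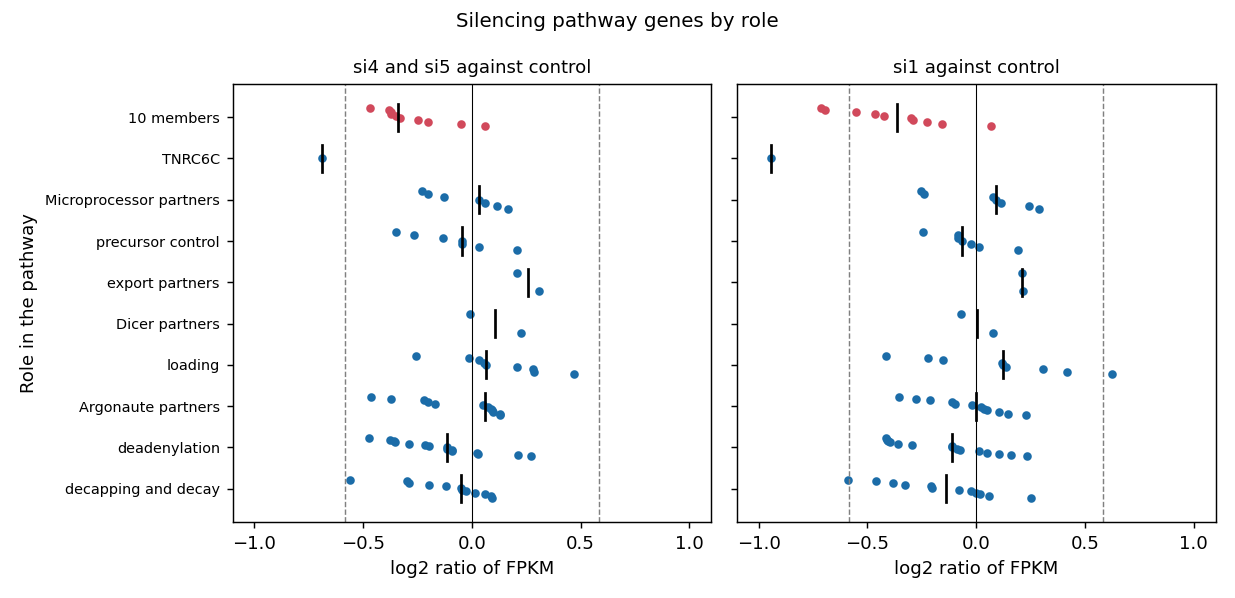
Log2 ratio of FPKM to control for the 10 genes (red) and for 67 other pathway genes by role (blue), for the mean of si4 and si5 (left) and for si1 (right), with 1 point per gene, black bars at group medians and dashed lines at the 1.5-fold limit. The 10 genes have medians of -0.34 and -0.36, and the loading genes have medians of 0.07 and 0.12, all without the length and GC correction.

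The guides differ in their seeds, and 3′ UTR matches to each seed were counted. Among 12043 3′ UTRs of expressed genes, ACGTGTA, the match to the si4 seed, occurred in 3.35%, ACAAGAG, the match to the si5 seed, in 12.0%, and ATCATTT, the match to the si1 seed, in 23.4%. Only the transcript strand was searched, and a match is a description of the sequence and not a shown site of binding. In the si4 library the 402 genes with an si4 match had a median log2 ratio to control of -0.29, and the 11575 genes without had -0.01. The same genes with an si4 match had -0.05 with si5 and -0.04 with si1. In the si5 library the genes with an si5 match had -0.10 against -0.01 for those without, and the same genes had -0.05 with each of si4 and si1. In the si1 library the genes with an si1 match had -0.06 against 0.01 for those without, and the same genes had -0.03 with each of si4 and si5.

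None of the 10 silencing machinery genes held an si4 match, neither the 8 that were below the control with si4 nor EIF2C3 and XPO5, which were above it. An si5 match was found in 6 of the 10 and an si1 match in 5. Long 3′ UTRs hold such matches often. Among 3′ UTRs of like length to those of EIF2C1, EIF2C2 and EIF2C3, 52.8% to 66.7% held an si5 match and 87.8% to 90.9% an si1 match, and the matches of these 3 genes lie beyond the table's intervals. The share was 90.1% for the si1 match at the length of TNRC6B, 26.6% for the si5 match at that of DICER1 and 8.93% at that of XPO5. Matches inside the table's intervals in TNRC6A, TNRC6B, DICER1 and XPO5 are shown with 11 bases on either side, 5′ to 3′ on the transcript strand, with the match in capitals, since they can be set beside the values above.
TNRC6A, si1 match, chr16:24835916-24835944, plus strand: tttactcttccATCATTTaaaaaaaatgt
TNRC6B, si1 match, chr22:40729554-40729582, plus strand: agtaactcagtATCATTTtgtagttcaca
TNRC6B, si1 match, chr22:40729857-40729885, plus strand: ggttggaatggATCATTTtgaattgcttc
DICER1, si5 match, chr14:95556561-95556589, minus strand: ttgtttaaatcACAAGAGtgctttaatga
XPO5, si5 match, chr6:43490831-43490859, minus strand: tccactcaggcACAAGAGccacagtaccc
XPO5, si5 match, chr6:43490439-43490467, minus strand: ccagtccactgACAAGAGggtttccccga
Of the genes lowest with si1, EIF2C2, EIF2C3 and TNRC6A held an si1 match, and EIF2C4 and DICER1 held none. For EIF2C2 and EIF2C3 the counting intervals with si4, si5 and si1 overlapped, so the order of the siRNAs is uncertain. EIF2C3 was nearly level with si1 and si5 (2.46 and 2.47 FPKM). DICER1, with an si5 match, was higher with si5 than with si4 and below the control with both. EIF2C4 held 1 si5 match inside its interval, as 26.7% of 3′ UTRs of like length do, and was level with si5 and si4. That match is not shown. Of the genes with si5 matches beyond the interval, EIF2C1 was lowest with si5 and EIF2C3 was lower with si5 than with si4. EIF2C2 had its highest siRNA value with si5. XPO5 held 2 si5 matches and was lowest with si5. TNRC6A held 1 si1 match, which 31.0% of 3′ UTRs of like length do, and TNRC6B held 2 and was lowest with si4.

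TNRC6C, lowest with si1, also held an si1 match, as 45.3% of 3′ UTRs of like length do. It was 1 of 19 among the 67 other pathway genes that held one. FXR1 held 4 si1 matches and had a log2 ratio of 0.02 with si1. Of the 67 other pathway genes, 4 held an si4 match, beside 3.35% of all 3′ UTRs. The si4 matches are shown for FMR1, LIN28B and FXR1, which were picked out after their values were known. NCBP2 held the remaining si4 match, which is not shown, and was lowest with si4. It stood at 28.4 FPKM in the control, 21.3 under si4, 28.1 under si5 and 34.7 under si1. FMR1, an RNA-binding partner of Argonaute, and LIN28B, a binder of let-7 precursors, were lowest in the si4 library.
TNRC6C, si1 match, chr17:76103699-76103727, plus strand: tgctttattctATCATTTgctttgtggtt
FMR1, si4 match, chrX:147032509-147032537, plus strand: ttgtgtgctaaACGTGTAtgtttttcagt
LIN28B, si4 match, chr6:105528310-105528338, plus strand: tgtcatgggagACGTGTAtagttgctgct
FXR1, si4 match, chr3:180697360-180697388, plus strand: tctttattagaACGTGTActtgaatggac
FMR1 stood at 41.0 FPKM in the control, 22.5 under si4, 37.0 under si5 and 38.3 under si1, and it was 1 of 2 pathway genes past the limit between si5 and si4, with AJUBA, 2 of 67 beside 2.53% of all genes. LIN28B stood at 23.1, 20.7, 24.0 and 21.8 FPKM in the same order. It also held 1 si5 match, which is not shown, and was highest with si5. FXR1 stood at 16.3, 17.0, 17.6 and 16.5 FPKM and was not lower with si4. Whether a seed match lowered any of these genes was not tested.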

How the data were processed

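RNA of 4 HEK-293 samples was sequenced, 1 for each siRNA and 1 for the scrambled control. The authors deposited 1 table of FPKM values per gene and library, on build hg19. The submitters' processing notes name CASAVA 1.8.2, Trimmomatic 0.30, TopHat2 2.1.0 and Cufflinks 2.2.1. The labels and the methods name different kits, both for stranded mRNA libraries. Counts were not used here. FPKM divides by depth and length, so it holds no depth, which was recovered from the steps of low values: the 4 values of 72.9% of 1655 genes under 0.1 FPKM were, within 0.05%, in the proportions of whole numbers up to 40. Fragments per gene derived from this are approximate. A symbol on several rows was taken at its highest row.

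As in the study, si4 and si5 formed 1 group for ZSCAN5A, here as their mean, and si1 was used for ZSCAN5B. The study's rule for ZSCAN5B was used for both, and genes were called past 1.5-fold where a library reached 1 FPKM, without a pseudocount and with neither side at 0. The authors' adjusted p-value for ZSCAN5A was not repeated in the main comparison. A limma test of si4 and si5 against the control was an alternative. Counting intervals are exact (Clopper-Pearson, 95%). Transcripts and UTRs came from GENCODE release 44 lifted to GRCh37 and matched 96.2% of 12935 expressed genes. The length and GC correction took off the median of the 200 nearest genes. Sequences printed were read from the study's list of siRNAs and from the GRCh37 transcripts, and 13 of 13 equalled the genome. Some seed matches are not reported here. The fold rule, the correction and limma were tested on simulated data. Python 3.11.15, pandas 2.3.3, SciPy 1.17.1, scikit-learn 1.9.0 and, in R 4.3.3, limma 3.58.1 were used.

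The 10 genes and the lists were chosen with earlier results of these data known. Named genes were the 10, both targets, TNRC6C, the PIWI genes, TARBP2, PRKRA, pathway genes past the limit and the largest rise and fall in each comparison. RAN, RCC1, FMR1, AJUBA, LIN28B, FXR1 and NCBP2 were added after their values were seen. The alternatives were a pseudocount of 1, other scalings, other limits, the correction, summed rows, each siRNA alone and limma.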

Additional observations from a re-analysis of the deposited data

Results flagged for a closer look

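Among the 10 genes, both targets and the pathway genes named by rule, the ratios of 3 to the control lay on one side for both ZSCAN5A siRNAs and on the other side for si1, and this difference was not tested, since there is 1 library for each. ZSCAN5A, the target of si4 and si5, had a log2 ratio of -1.74 for their mean and 0.0662 for si1. ZSCAN5B had -0.86 for si4 and si5 and 0.0699 for si1, its own siRNA, at 6 to 17 fragments per library. The study's own qRT-PCR, not analysed here, reported no reduction of ZSCAN5B by its ZSCAN5A siRNAs and some over-expression with si4. PIWIL4, a PIWI-class relative of the Argonautes below 0.2 FPKM in every library, had -0.36 for si4 and si5 and 0.0198 for si1. None of the 10 silencing machinery genes met this description. Without replicates, no group was large enough to look for a library apart from the others.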

How the results depend on the processing

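No paired analysis was possible because there is 1 library per siRNA and the groups share no more than 1 replicate number. The count of the 10 genes past the limit with si4 and si5 was 0 under every alternative of the fold rule except a looser limit (the higher value 25% above the lower), which called 6 (all lower, with 18.4% of all genes called). With si1 it was 2 except at the looser limit (5, with 19.5% of all genes), at 2-fold (0) and after the length and GC correction (1, EIF2C4, with TNRC6A at log2 -0.53). Between si1 and the ZSCAN5A siRNAs the looser limit called 1 (EIF2C4), and between si5 and si4 it called 0. The median of the 10 with si4 and si5 was -0.30 on log2(FPKM + 1), -0.33 with median-ratio scaling, -0.36 with upper-quartile scaling and -0.15 after the correction, and -0.28 to -0.26 with 1 siRNA left out. With si1 the median was -0.31 on log2(FPKM + 1), -0.40 with upper-quartile scaling and -0.20 after the correction. EIF2C3 was higher than the control with si4 alone (0.04) and after the correction (0.04), and XPO5 was lower with si5 alone (-0.05).

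For the pathway list with si4 and si5, the count of 1 became 0 on log2(FPKM + 1), after the correction, at 5 FPKM, at 2-fold and with limma, 3 without an expression limit and 10 at the looser limit, and it was 1 to 3 with 1 siRNA left out. With si1 the count of 3 became 2 on log2(FPKM + 1), with median-ratio scaling and at 5 FPKM, 1 after the correction, 0 at 2-fold and 14 at the looser limit. The cause of these shifts was not tested. limma on log2(FPKM + 1), with 2 libraries against 1, called 0 of the 10 genes (adjusted p of 0.37 to 0.90, and 3 of 10 at an unadjusted p under 0.05 against 12.8% of all genes) and 10 of 12986 genes in all, each listed at 0 on one side. It treats si4 and si5 as replicates, and since ZSCAN5A itself did not pass (adjusted p = 0.35), its count of 0 says nothing about stability. Few fragments limit what can be said of the ZSCAN5 genes and the PIWI genes, and to a lesser degree of EIF2C3, with 496 to 757 fragments per library. With 1 control library, a shift of that library alone would appear in all 3 ratios to it.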
